A study of Mus musculus with 6 samples.

Results

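The genes described here encode the enzymes that copy DNA at the replication fork and the factors that open and fire replication origins. They were taken as a list of 38 genes in 10 subcomplexes: DNA polymerase alpha with primase, polymerases delta and epsilon, the sliding clamp with its loader, replication protein A (RPA), the enzymes that process Okazaki fragments, GINS with Cdc45, the origin recognition complex, the origin firing kinase, chromatin assembly factor 1 and fork protection. Of the 38 genes, 37 were measured, out of 18193 genes tested. Chaf1a had no probe set annotated to it alone and was not analysed here.

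Expression was measured in whole tongues of adult C57BL/6J mice, an inbred laboratory strain. The 4NQO-treated group was 3 mice that drank 4-nitroquinoline 1-oxide (4NQO), a carcinogen that damages DNA, at 100 μg/ml for 8 weeks. The control group was 3 untreated mice of the same strain. RNA of each single tongue was hybridized to 1 Affymetrix array, so p-values measure the spread between tongues. The values are log2 signals of probe sets, so a difference of 1 is a doubling, and signals of different genes were not compared because each probe set has its own brightness. Where a gene had several probe sets, the brightest over all 6 arrays was used.

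During S phase, primase and polymerase alpha lay down short primers that polymerase epsilon extends on the leading strand and polymerase delta on the lagging strand. The ring-shaped clamp PCNA, loaded by replication factor C, holds the polymerases on DNA, RPA coats single strands, and FEN1 and DNA ligase join the lagging-strand pieces. Origins are marked by the origin recognition complex and loaded with the MCM helicase before S phase. The kinase CDC7-DBF4 then starts the helicase, which travels with CDC45 and GINS. In tongue, as in other stratified epithelia, DNA is copied mainly by basal and parabasal keratinocytes.

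Signals of most replication fork genes were higher in 4NQO-treated tongue than in control tongue, by less than 1 log2 unit for all but Dbf4 and Pole. In the origin recognition complex, the groups overlapped in 5 of the 6 subunits on the brightest probe sets. The log2 fold change was positive for 34 of the 37 genes (91.9%), against 47.7% of all genes tested. Its median was 0.66, against -0.01 over all genes, and it ran from -0.26 for Orc3 to 1.19 for Dbf4. In 28 of the 37 genes (75.7%) all 3 4NQO-treated tongues lay above all 3 control tongues, as they did in 9.59% of all genes. In 0 of the 37 genes did they all lie below, against 7.18% of all genes, and in 9 genes the groups overlapped.

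No single gene of the list passed the test. At an adjusted p under 0.05 from limma, 0 of the 37 genes were called higher, against 0.126% of all genes, and 0 were called lower, against 0.0055%. At an unadjusted p under 0.05, 22 genes were higher (59.5%, against 6.68% of all genes) and 0 lower (against 3.74%). At an adjusted p under 0.10 from limma, 2 genes were higher, Pole and Gins1, against 0.566% of all genes. Significance Analysis of Microarrays (SAM), a permutation method run on the same values, also called Pole and Gins1, and 0.456% of all genes. With 3 against 3 tongues an exact two-sided permutation p cannot fall below 0.1, and the number of arrays limits the precision.

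**Figure D1:**
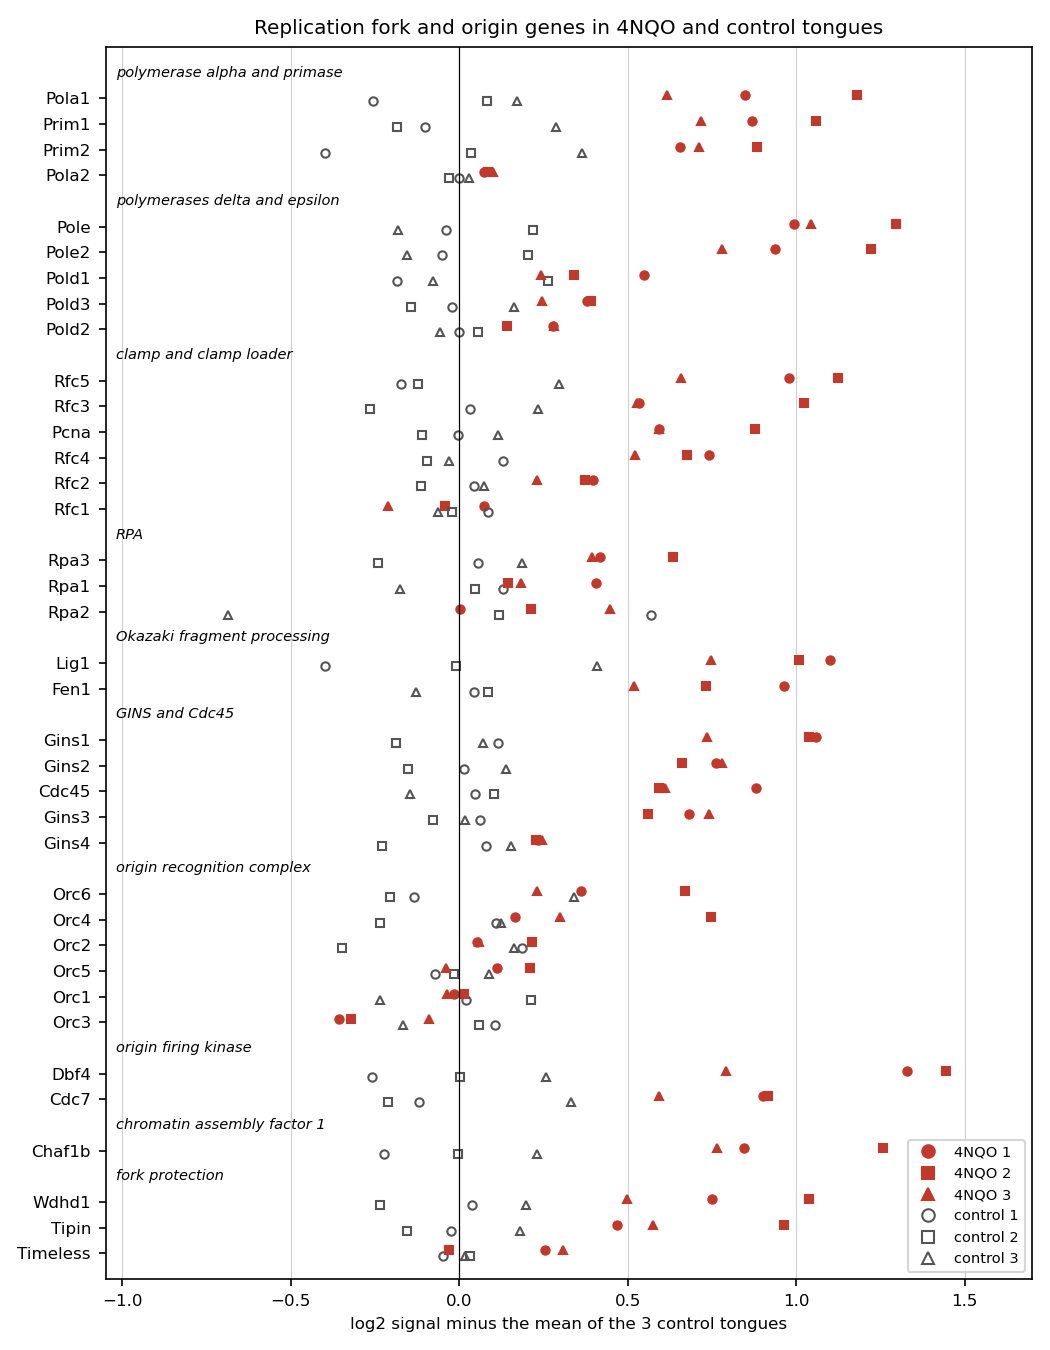
Log2 signal of each of the 37 genes in each tongue minus the mean of the 3 control tongues, by subcomplex; filled red symbols are the 4NQO-treated tongues and open grey symbols the control tongues. In 28 genes all red symbols lie right of all grey ones, and 5 of the 9 genes with mixed symbols belong to the origin recognition complex.

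Promoter sequences were read because most of the genes differed in 1 direction and E2F transcription factors are known to control many replication genes. In the 250 bases upstream of RefSeq start sites (GRCm38.p6), both strands were searched for the E2F-type motifs TTTCCCGC, TTTGGCGC and TTTCGCGC. At least 1 motif stood before 1.78% of 27025 genes, and before 5 of the 30 measured genes of the list that had a window (16.7%), namely Pola1, Rfc3, Gins3, Orc1 and Orc3. None of the 10 genes with the smallest p held one, although 7 of the 10 had a window. A search for their 7-letter cores, which leave out the first T of each motif, was chosen after that. A core stood before 7.68% of all genes and 12 of the 30 (40.0%).

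Stretches around the cores are printed here for the 3 genes among the 10 smallest p that held one (Prim1, Fen1 and Chaf1b), for Pola1, which held 3 cores, and for Orc1 and Orc3, which held a full motif and had the lowest log2 fold changes of these 6 genes. Each runs 5′ to 3′ on the strand of its gene, and capitals mark the core on either strand.
Prim1: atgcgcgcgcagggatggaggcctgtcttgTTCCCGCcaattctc
Fen1: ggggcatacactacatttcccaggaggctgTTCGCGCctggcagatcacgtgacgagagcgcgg
Chaf1b: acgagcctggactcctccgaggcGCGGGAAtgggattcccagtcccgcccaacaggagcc
Pola1: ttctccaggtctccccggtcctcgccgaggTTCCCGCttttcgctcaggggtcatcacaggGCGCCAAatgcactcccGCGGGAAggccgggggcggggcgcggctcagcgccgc
Orc1: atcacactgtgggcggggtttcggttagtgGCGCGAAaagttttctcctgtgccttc
Orc3: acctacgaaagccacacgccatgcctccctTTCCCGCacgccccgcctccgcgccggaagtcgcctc

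In GRCm38.p6 the Prim1 stretch is chr10:128015170-128015214 on the plus strand, the Fen1 stretch chr19:10203922-10203985 on the minus strand and the Chaf1b stretch chr16:93883651-93883710 on the plus strand. The Pola1 stretch is chrX:93632240-93632354 on the minus strand, the Orc1 stretch chr4:108579397-108579453 on the plus strand and the Orc3 stretch chr4:34614946-34615012 on the minus strand. Genes with a core had a median log2 fold change of 0.68 (-0.26 to 0.96), and in 9 of the 12 every 4NQO-treated tongue was the higher. Genes without one had a median of 0.40 (-0.06 to 1.19), with 12 of 18 separated in that way. The ranges overlapped over most of their extent, and Dbf4 and Pole2, 2 of the 3 highest fold changes, belong to genes without a core, while Pole had no window to search.

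Polymerase alpha and primase make the RNA-DNA primer, and all 4 genes had every 4NQO-treated tongue above every control tongue (median log2 fold change 0.82, or 0.53 with the mean of all probe sets of a gene). Prim1, the catalytic primase subunit, had log2 signals of 7.98, 8.17 and 7.83 in 4NQO-treated tongues, against 7.01, 6.92 and 7.40 in control tongues. Pola1, the catalytic polymerase subunit, had 6.24, 6.57 and 6.01 in 4NQO-treated tongues, against 5.13, 5.47 and 5.56 in control tongues. Both differed by 0.88 on the log2 scale, with SEs of 0.18 for Prim1 and 0.20 for Pola1 and adjusted p-values from limma of 0.135 and 0.182. Prim2, the large primase subunit, had 6.17, 6.40 and 6.23 in 4NQO-treated tongues, against 5.12, 5.55 and 5.88 in control tongues, and a log2 fold change of 0.75 ± 0.21 (SE). Pola2, the regulatory B subunit, stood apart from these 3 with signals of 6.98, 6.99 and 7.01 in 4NQO-treated tongues, against 6.91, 6.88 and 6.94 in control tongues. Its log2 fold change was 0.09 ± 0.13 (SE), the groups were separated by 0.042, and the mean of its 3 probe sets gave -0.070.

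Of polymerases delta and epsilon, Pole and Pole2 had the larger fold changes, while the small epsilon subunits Pole3 and Pole4, which belong to the other fork partners, had log2 fold changes of 0.10 and 0.04 with overlapping groups. Pole, the catalytic subunit of the leading-strand polymerase, had log2 signals of 6.09, 6.39 and 6.14 in 4NQO-treated tongues, against 5.05, 5.31 and 4.91 in control tongues. The fold change was 2.16, or 1.11 ± 0.17 on the log2 scale (SE), with an adjusted p of 0.0703 from limma, the smallest of the list. Its lowest 4NQO-treated tongue stood 0.77 above its highest control tongue, the widest gap among the 37 genes. Pole2, the B subunit of the same enzyme, had 6.97, 7.25 and 6.81 in 4NQO-treated tongues, against 5.98, 6.24 and 5.88 in control tongues, a log2 fold change of 0.98 ± 0.18 (SE, adjusted p = 0.101, limma).

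On the brightest probe sets, the delta subunits lay nearer to each other in the 2 groups. Pold3, an accessory subunit, had 7.25, 7.26 and 7.12 in 4NQO-treated tongues, against 6.85, 6.73 and 7.04 in control tongues, with a log2 fold change of 0.34 ± 0.15 (SE). Pold2, the B subunit, had 8.74, 8.61 and 8.75 in 4NQO-treated tongues, against 8.46, 8.52 and 8.41 in control tongues, with 0.23 ± 0.12. Pold1, the catalytic subunit, had a log2 fold change of 0.38 ± 0.18 (SE), and the groups overlapped by 0.020. Other probe sets gave 0.63 and 0.23 for Pold3, both without overlap, and 0.15 for Pold1, with overlapping groups. Adjusted p-values from limma of the 3 delta genes ran from 0.489 to 0.553.

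**Figure D2:**
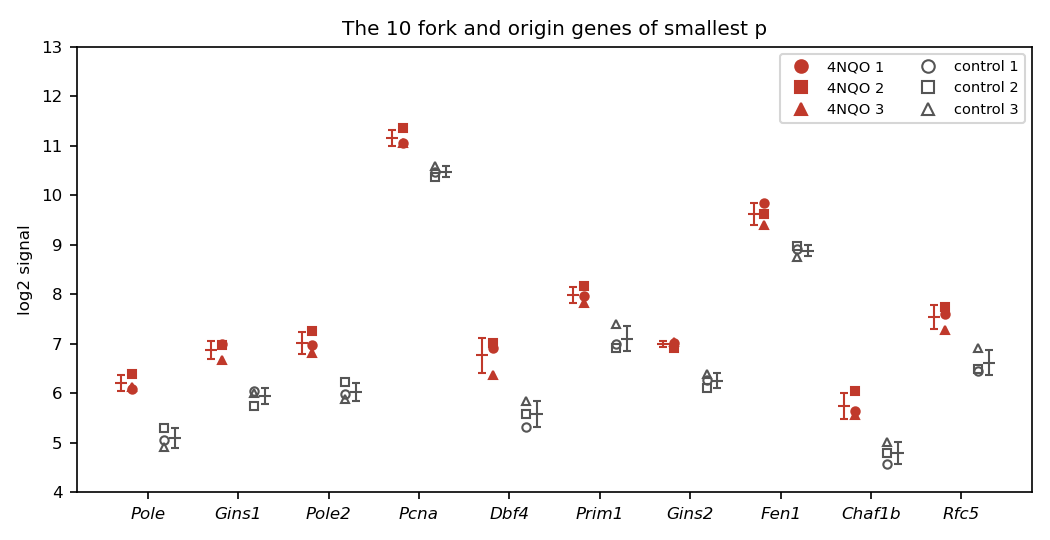
Log2 signal of the 10 genes of the list with the smallest p, for each 4NQO-treated tongue (filled red, left) and each control tongue (open grey, right); horizontal marks and bars are the mean and SD of 3 tongues. The groups do not overlap in any of the 10 genes, and the gap is widest for Pole (0.77).

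Among clamp and clamp loader genes, 5 of 6 were higher in every 4NQO-treated tongue (median log2 fold change 0.67). Pcna, the sliding clamp, had 11.07, 11.36 and 11.07 in 4NQO-treated tongues, against 10.47, 10.37 and 10.59 in control tongues. That is 11.16 ± 0.17 in 4NQO-treated tongues and 10.48 ± 0.11 in control tongues (SD, n = 3 each), a 1.61-fold difference with an adjusted p of 0.104 from limma. Of the loader, Rfc5 had 7.60, 7.75 and 7.28 in 4NQO-treated tongues, against 6.45, 6.50 and 6.92 in control tongues, a log2 fold change of 0.92 ± 0.19 (SE). Rfc4, another small loader subunit, had 6.89, 6.83 and 6.67 in 4NQO-treated tongues, against 6.28, 6.05 and 6.12 in control tongues, a log2 fold change of 0.65 ± 0.15 (SE). The small subunits Rfc3 and Rfc2 had log2 fold changes of 0.70 and 0.33. Rfc1, the large subunit of the loader, was the exception, with 8.48, 8.36 and 8.19 in 4NQO-treated tongues, against 8.49, 8.39 and 8.34 in control tongues. Its groups overlapped, and its log2 fold change of -0.06 ± 0.14 (SE) turned to 0.014 when arrays were centred on the medians of all probe sets.

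RPA, the single-strand binding trimer, had a median log2 fold change of 0.24, which was 0.51 without control 1 and 0.16 without control 3. Rpa3, the smallest subunit, had 8.12, 8.34 and 8.10 in 4NQO-treated tongues, against 7.76, 7.46 and 7.89 in control tongues (log2 fold change 0.48 ± 0.16, SE). Rpa1, the largest and main DNA-binding subunit, had 11.13, 10.87 and 10.91 in 4NQO-treated tongues, against 10.86, 10.77 and 10.55 in control tongues, groups separated by 0.015. Rpa2 had 7.29, 7.49 and 7.73 in 4NQO-treated tongues, against 7.85, 7.40 and 6.59 in control tongues, and the groups overlapped. Its log2 fold change of 0.22 rested on control 3, without which it was -0.12.

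Both enzymes of Okazaki fragment processing were higher in every 4NQO-treated tongue. Lig1, the replicative DNA ligase, had 7.77, 7.68 and 7.42 in 4NQO-treated tongues, against 6.27, 6.66 and 7.08 in control tongues. Fen1, the flap endonuclease, had 9.85, 9.62 and 9.40 in 4NQO-treated tongues, against 8.93, 8.97 and 8.75 in control tongues. The log2 fold changes were 0.95 ± 0.22 for Lig1 and 0.74 ± 0.15 for Fen1 (SE), with adjusted p-values of 0.192 and 0.140 from limma. The Fen1 probe set carries a suffix for probes that may also match other sequences. A second Fen1 probe set, which carries a different suffix, gave a log2 fold change of 0.92.

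GINS and Cdc45 form the active helicase together with MCM, and all 5 genes had non-overlapping groups (median log2 fold change 0.70). Gins1 had 6.999, 6.98 and 6.68 in 4NQO-treated tongues, against 6.06, 5.75 and 6.01 in control tongues, a 1.92-fold difference (0.94 ± 0.17 on the log2 scale, SE, adjusted p = 0.0928, limma). Gins2 had 7.02, 6.92 and 7.04 in 4NQO-treated tongues, against 6.27, 6.10 and 6.40 in control tongues, a log2 fold change of 0.73 ± 0.15 (SE). Gins3 had 5.38, 5.26 and 5.44 in 4NQO-treated tongues, against 4.76, 4.62 and 4.71 in control tongues, a log2 fold change of 0.66 ± 0.14 (SE). These 3 GINS subunits and Cdc45 (log2 fold change 0.70 ± 0.16, SE) differed by similar amounts. Gins4, the remaining GINS subunit, had 7.62, 7.61 and 7.63 in 4NQO-treated tongues, against 7.46, 7.15 and 7.54 in control tongues, with a log2 fold change of 0.24 ± 0.15 (SE).

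On the brightest probe sets, the origin recognition complex showed no such separation, and the groups overlapped in 5 of its 6 subunits. Of the 6, 0 had an unadjusted p under 0.05, and the median log2 fold change was 0.10. Orc6 had 7.77, 8.08 and 7.64 in 4NQO-treated tongues, against 7.27, 7.20 and 7.75 in control tongues. Orc4, the only subunit with non-overlapping groups, had 6.92, 7.50 and 7.05 in 4NQO-treated tongues, against 6.86, 6.52 and 6.88 in control tongues. The Orc4 groups were separated by 0.040, and its other probe sets (log2 fold changes 0.20, 0.36 and 0.06) had overlapping groups. Orc3 had 7.96, 8.00 and 8.23 in 4NQO-treated tongues, against 8.42, 8.38 and 8.15 in control tongues. The log2 fold changes of these 3 were 0.42 ± 0.20, 0.40 ± 0.20 and -0.26 ± 0.15 (SE), and the adjusted p-values of all 6 subunits from limma ran from 0.512 to 0.982. Orc1, the subunit with regulated abundance in the cell cycle, had 3.96, 3.99 and 3.94 in 4NQO-treated tongues, against 4.00, 4.19 and 3.74 in control tongues. On every array this Orc1 signal was dimmer than the median probe set, so nothing shows that it was more than background. A second Orc1 probe set, dim as well, gave 0.60 with non-overlapping groups (unadjusted p = 0.0057, limma). Orc2 and Orc5 had log2 fold changes of 0.11 and 0.09, and the sign of Orc2 turned (-0.065) without control 2. Whether the origin recognition complex differed from the other subcomplexes was not tested.

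The kinase that fires origins had a median log2 fold change of 1.00, the highest of the subcomplexes with the brightest probe sets, but 0.58 with the mean of all probe sets of a gene, below Okazaki fragment processing at 0.89. Its regulatory subunit Dbf4 had log2 signals of 6.91, 7.03 and 6.37 in 4NQO-treated tongues, against 5.32, 5.59 and 5.84 in control tongues. This 2.28-fold difference (1.19 ± 0.22 on the log2 scale, SE) was the largest of the 37 genes, with an adjusted p of 0.110 from limma. The catalytic subunit Cdc7 had 5.63, 5.65 and 5.33 in 4NQO-treated tongues, against 4.61, 4.52 and 5.06 in control tongues, a log2 fold change of 0.80 ± 0.20 (SE).

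Chaf1b, the middle subunit of the histone chaperone that works behind the fork, had 5.64, 6.05 and 5.56 in 4NQO-treated tongues, against 4.57, 4.79 and 5.02 in control tongues. The log2 fold change was 0.96 ± 0.20 (SE, adjusted p = 0.141, limma), but 0.37 when a dim second probe set was averaged in. Of the fork protection genes, Wdhd1, which links polymerase alpha to the helicase, had 6.50, 6.78 and 6.24 in 4NQO-treated tongues, against 5.78, 5.51 and 5.94 in control tongues. Tipin had 7.89, 8.39 and 8.00 in 4NQO-treated tongues, against 7.40, 7.27 and 7.60 in control tongues. Log2 fold changes were 0.76 ± 0.20 for Wdhd1 and 0.67 ± 0.18 for Tipin (SE). Timeless, the partner of Tipin, had 8.16, 7.87 and 8.21 in 4NQO-treated tongues, against 7.85, 7.93 and 7.92 in control tongues, so that 4NQO 2 lay among the controls and the log2 fold change was 0.18 ± 0.14 (SE).

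**Figure D3:**
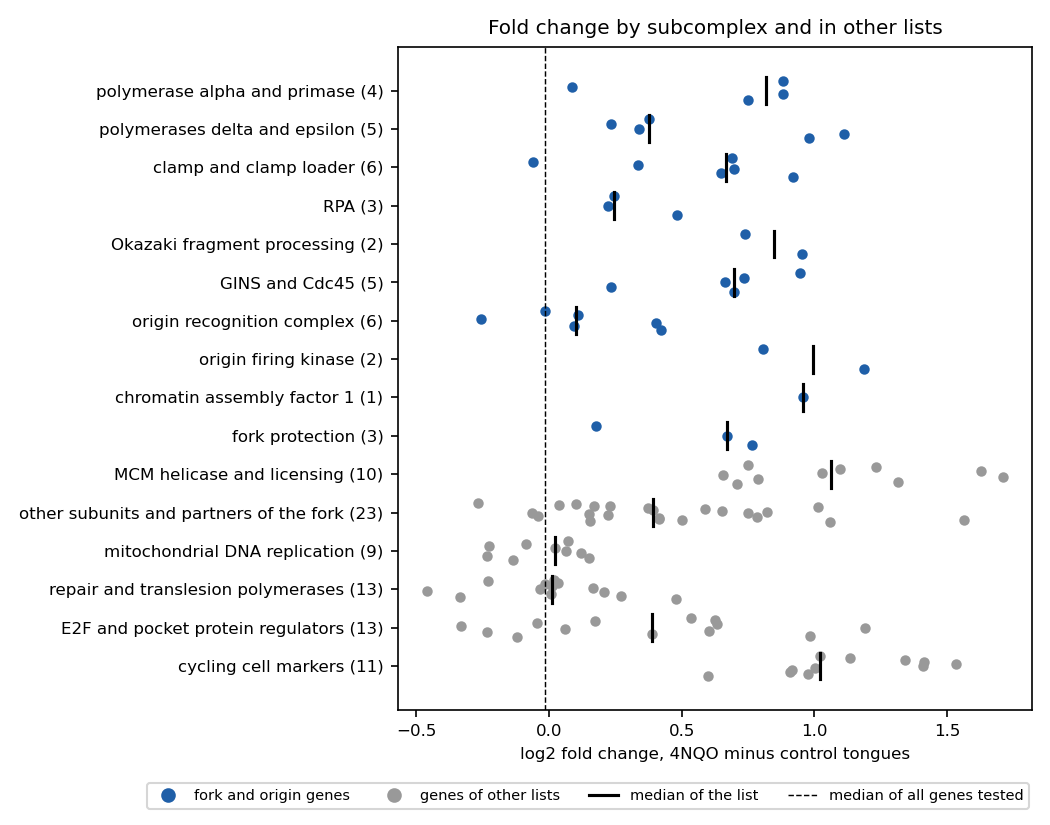
Log2 fold change (4NQO-treated minus control tongues) of each gene, by subcomplex (blue) and for 6 other gene lists (grey), with the number of genes in parentheses; vertical bars are list medians and the dashed line is the median of all genes tested (-0.01). Medians of the subcomplexes run from 0.10 (origin recognition complex) to 1.00 (origin firing kinase, 0.58 with the mean of all probe sets), and that of the MCM and licensing list is 1.06.

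Other probe sets of the same genes gave a second reading in 26 genes. Of 35 such probe sets, 14 had every 4NQO-treated tongue above every control tongue and 2 the reverse, and 10 were higher at an unadjusted p under 0.05 from limma. Over all genes, on the probe sets used, these shares were 9.59%, 7.18% and 6.68%. Shares over all probe sets, or over dim ones alone, are not given here. Of the 24 that lay above the median of all probe sets in at least 1 group, 12 were higher without overlap (median log2 fold change 0.30), against 2 of the 11 dimmer ones (0.06). Prim1, Rfc3, Rfc4 and Gins2 gave like values on the second probe set, with log2 fold changes of 0.68, 0.70, 0.69 and 0.98. Readings disagreed for Cdc45, whose second probe set was lower in every 4NQO-treated tongue (-0.28), for Timeless (0.68 on the second) and for Orc1, whose second, dim probe set gave 0.60 with non-overlapping groups. Second probe sets gave smaller values for Cdc7 (0.30) and Gins3 (0.31), both still without overlap. Dim second probe sets with overlapping groups gave -0.22 for Chaf1b, 0.021 for Dbf4, 0.052 for Pole2, 0.13 for Gins1 and 0.22 for Pola1. Orc3 had 2 further probe sets, at -0.27 (lower in every 4NQO-treated tongue) and 0.08.

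**Figure D4:**
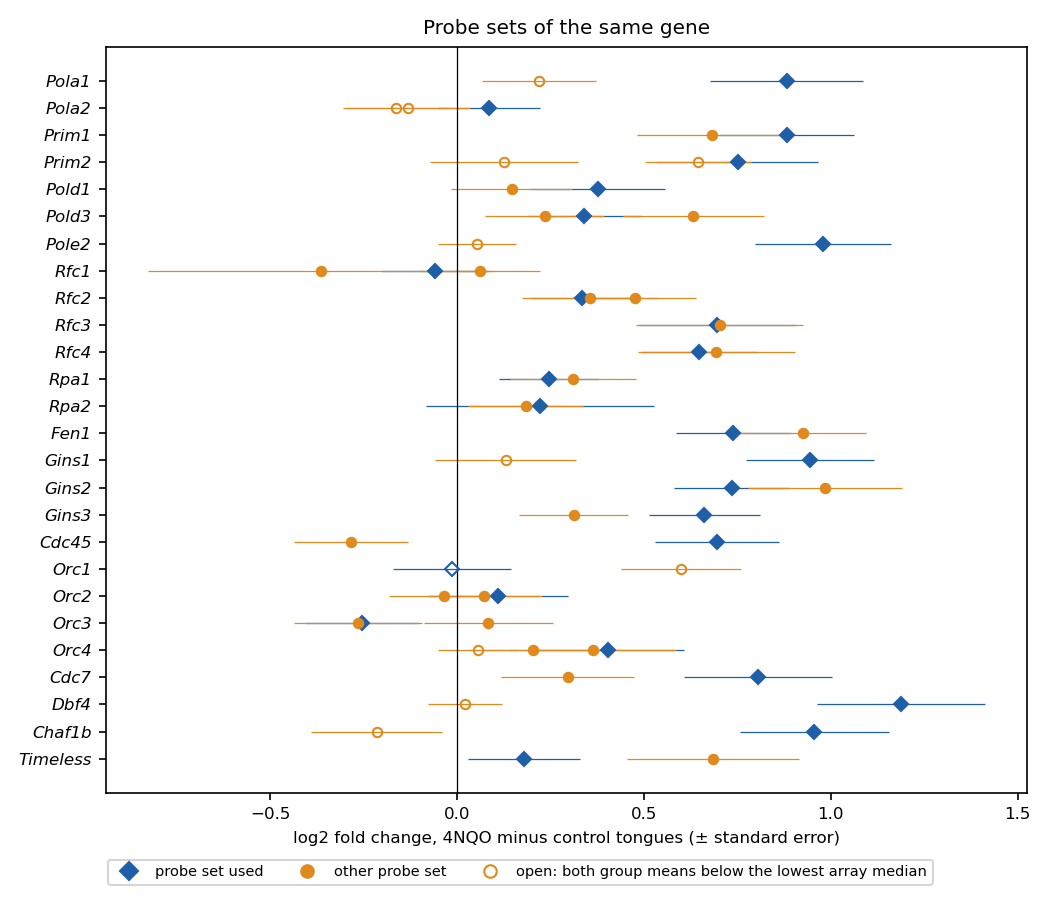
Log2 fold change (4NQO-treated minus control tongues) with its SE for each probe set of the 26 genes that had several; blue diamonds are the probe sets used, orange circles the others, and open symbols have both group means below the lowest array median. The 2 readings of Rfc3 and of Rfc4 nearly coincide, while those of Cdc45 fall on opposite sides of 0.

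The helicase and licensing genes with which these factors work were higher in 4NQO-treated tongues too. Of 10 genes (Mcm2 to Mcm7, Mcm10, Cdc6, Cdt1 and Gmnn), 2 rose past limma's threshold of 0.05 after adjustment (20%, against 0.126% of all genes). All 10 were higher without overlap, against 9.59% of all genes, and the median log2 fold change was 1.06. Mcm5 rose by 1.63 ± 0.14 (SE, adjusted p = 0.0116, limma), with 8.80, 8.62 and 8.64 in 4NQO-treated tongues, against 7.20, 6.89 and 7.09 in control tongues. Mcm3 rose by 1.23 ± 0.15 (SE, adjusted p = 0.0315, limma), while Cdt1, which loads the helicase, differed by 1.31 with an adjusted p of 0.0522. Of 23 other fork subunits and partners, 1 rose (4.35%, against 0.126% of all genes). Of the 23, 12 were higher without overlap (52.2%, against 9.59% of all genes), and the median was 0.39. The gene that rose was Clspn, the checkpoint mediator Claspin, with 6.20, 6.22 and 5.65 in 4NQO-treated tongues, against 4.45, 4.39 and 4.55 in control tongues (adjusted p = 0.0358, limma). Asf1b, a histone chaperone, differed by 1.01 on the log2 scale (adjusted p = 0.0813, limma) and Top2a, which untangles copied DNA, by 1.06 (adjusted p = 0.216).

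The lists of mitochondrial replication genes and of repair and translesion polymerases had medians near that of all genes. Of 9 mitochondrial replication genes, 0 had groups that did not overlap, against 9.59% of all genes higher and 7.18% lower. Their log2 fold changes ran from -0.23 to 0.15 (median 0.02). Of 13 repair and translesion polymerases and their partners, 0 had an unadjusted p under 0.05, against 6.68% of all genes higher and 3.74% lower. Log2 fold changes ran from -0.46 to 0.48 (median 0.01). The highest was Rad18, the ubiquitin ligase that modifies PCNA at stalled forks, with 5.99, 5.57 and 5.20 in 4NQO-treated tongues, against 5.18, 4.996 and 5.16 in control tongues. Groups did not overlap for Rad18 and Mad2l2 (log2 fold change 0.27), a subunit of polymerase zeta. They were the only ones of the 13, both higher (15.4%, against 9.59% of all genes).

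Markers of cycling cells moved with the replication genes. All 11 measured markers were higher in every 4NQO-treated tongue, against 9.59% of all genes (median log2 fold change 1.02, range 0.60 to 1.53). Of the 11 markers, 0 passed an adjusted p under 0.05 from limma, against 0.126% of all genes higher. Their summed linear signal was 3505, 4053 and 2795 in 4NQO-treated tongues, against 1168, 1709 and 1995 in control tongues, and none was at 0, although Aurkb and Ccne2 had control means below the array medians. Ccna2, cyclin A2, had 9.32, 9.38 and 8.93 in 4NQO-treated tongues, against 7.71, 8.20 and 8.31 in control tongues (adjusted p = 0.0928, limma). The part of these markers in the fork genes' difference was not tested, and in whole tongue more cycling cells cannot be told apart from more RNA per cell.

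Markers of other tongue cells had medians nearer to that of all genes. The tissue label fitted its markers, with Krt13 of squamous epithelium at 13.40 to 13.72 in 4NQO-treated tongues and 13.20 to 13.54 in control tongues, and Acta1 of skeletal muscle at 13.59 to 13.74 in 4NQO-treated tongues and 13.67 to 13.91 in control tongues. Of 7 epithelial markers, 0 had groups that did not overlap and 6 had a positive log2 fold change (median 0.31). At an unadjusted p under 0.05, 2 were higher, Krt14 of basal cells (0.32) and Cdh1 (0.58), or 28.6%, against 6.68% of all genes. The summed linear signal of the 7 was 43853 to 51642 in 4NQO-treated tongues, against 43121 to 46479 in control tongues. Medians were -0.15 for 8 muscle, -0.28 for 6 fibroblast, 0.01 for 5 endothelial and 0.16 for 11 leukocyte markers. Of the leukocyte markers, Itgax, a dendritic cell integrin, was higher in every 4NQO-treated tongue (1.15, adjusted p = 0.0703, limma), and Cd79a of B cells was lower in every one (-0.59). The pan-leukocyte Ptprc (1.12) and Cd3g of T cells (0.94) were higher at an unadjusted p under 0.05, with overlapping groups. The other T cell markers, Cd3e, Cd4 and Cd8a, had overlapping groups and log2 fold changes of 0.16, -0.02 and 0.07. Ms4a1, also of B cells, had -0.07 with overlapping groups. Control means of Cd3g, Cd79a and Ms4a1 lay below the array medians. Col1a2 and Dcn of the fibroblast list were lower in every 4NQO-treated tongue. The leukocyte list summed to 2719 to 5435 in 4NQO-treated tongues, against 2693 to 5312 in control tongues. Lyz2 (log2 fold change -0.02) had the highest signal of that list on every array. The fibroblast list summed to 12118 to 15981 in 4NQO-treated tongues, against 15401 to 19791 in control tongues. The part of these cell types in the difference of the fork genes was not tested.

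Tongues of 1 group differed in order as well. Among 4NQO-treated tongues, 4NQO 2 had the highest signal in 20 of the 37 genes and 4NQO 3 the lowest in 21. Among control tongues, control 3 was highest in 21 and control 2 lowest in 18. The arrays of 4NQO 2 and control 3 also had the largest difference between the 3′ and 5′ Gapdh control probe sets, a sign of RNA or labelling quality. The Gapdh difference was 1.07 in 4NQO 2, against 0.47 and 0.33 in the other 4NQO-treated tongues, and 1.67 in control 3, against 0.086 and 0.20 in the other control tongues. For beta-actin it was 1.12, 0.95 and 0.55 in 4NQO 1 to 3, against 0.75, 0.83 and 1.01 in control 1 to 3, so that 4NQO 1 was highest. The arrays of 4NQO 2 and control 3 were lowest for Myh2, a myosin of muscle fibres, at 5.01 in 4NQO 2 and 5.43 in control 3, against 8.49 to 9.36 elsewhere. The muscle list as a whole differed much less. Its summed linear signal was 52946 in 4NQO 2, against 58965 and 57688 in the other 4NQO-treated tongues. In control 3 it was 53046, against 66877 and 65673 in the other control tongues. Ckm and Myh4 of that list were not lowest in 4NQO 2. Salivary gland markers summed to 6421 in 4NQO 3, against 115 and 212 in the other 4NQO-treated tongues, and to 4544 in control 2, against 260 and 1147 in the other control tongues. Amy1 had the highest signal of that list on every array, with 12.50 in 4NQO 3 and 11.83 in control 2. Lpo, Dcpp1, Bpifa1 and Pip had control means below the array medians. The part of gland and muscle content in the order of the tongues was not tested. Without 4NQO 2 and control 3 together, 22 of the 37 genes were higher at an unadjusted p under 0.05 and 30 without overlap, and the median log2 fold change was 0.62. Groups of fewer tongues separate more easily, so the 30 cannot be set against the 28 of all tongues. Shares over all genes are not given for these 2 counts. At an adjusted p under 0.05 from limma, 4 of all genes were called higher in this setting, against 23 with all tongues.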

How the data were processed

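Total RNA of 3 4NQO-treated and 3 control tongues was hybridized to Affymetrix mouse arrays. Pre-processing and normalization were done by the authors with Bioconductor packages, by a method not given in the sources used here, and the deposited values are log2 signals of 45101 probe sets. By the platform annotation, 34945 probe sets had 1 gene, 932 several and 9160 none, and 64 were array controls. Of 18193 genes, 18032 were found by Entrez ID in a table of GRCm38.p6, and 0 symbols changed. Array medians were 4.45 to 4.55 in 4NQO-treated and 4.57 to 4.60 in control tongues.

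All genes were fitted with limma 3.58.1 in R 4.3.3 (lmFit, eBayes with an intensity trend, two-sided), with Benjamini-Hochberg adjustment over all genes and a threshold of 0.05. No filter on dim genes was applied. The test was checked on simulated data. The members and lists were chosen with earlier results of these data known. Values per tongue are given for up to 3 members of a subcomplex with the smallest p and for the one with the largest p, and up to 3 members of other lists are named by smallest p. Outside this rule, Pole3, Pole4, Aurkb, Ccne2, Krt14, Cdh1, Ptprc, Cd3g, Cd79a, Tfdp2, E2f4, E2f5, E2f8, Rbl2, Myh2, Krt13, Acta1, Itgax, Col1a2 and Dcn were chosen after their values were seen. So were Cd3e, Cd4, Cd8a, Ms4a1, Lyz2, E2f1, E2f2, Ckm, Myh4, Amy1, Lpo, Dcpp1, Bpifa1 and Pip. Alternatives were quantile normalization, 2 kinds of centring, leaving out genes with a mean log2 under 5, the mean of probe sets or those without a shared-sequence suffix, 3 other variance settings, a replicate block, leaving out arrays, SAM and a threshold of 0.10.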

Additional observations from a re-analysis of the deposited data

How the results depend on the processing

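The 37 genes had 0 calls in each direction under every alternative except 3. Pole was called when arrays were centred on the medians of all probe sets (adjusted p = 0.0498, limma), a setting chosen after seeing the data, and 2 genes each were called at a threshold of 0.10 and by SAM. Unadjusted calls ran from 20 to 27 and genes higher without overlap from 25 to 31. Groups separate more easily with an array left out, so those counts are not like the others. The median log2 fold change of 0.66 was 0.48 with the mean of all probe sets, which includes dim ones, and 0.53 to 0.71 with 1 array left out, lowest without 4NQO 2. Over all genes, the 23 higher calls became 63 with probe set centring, 15 with the mean of probe sets, 43 with robust variance, 41 with array weights, 4 without 4NQO 2 and control 3, 103 at 0.10 and 83 with SAM. With 1 array left out they ran from 0 to 25, with 10 without 4NQO 1, 1 without 4NQO 2 and 0 without control 2. The 1 lower call became 2 with probe set centring, 3 without dim genes, 2 without the trend, 4 with robust variance, 4 with weights, 0 without 4NQO 2 and control 3, 8 at 0.10, 0 with SAM and 0 to 2 with 1 array left out. The cause was not tested.

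Signs turned for Pola2 (-0.070, mean of probe sets), for Rfc1 (0.014 with probe set centring, 0.016 without 4NQO 3, -0.13 to 0.016 over arrays left out) and for Rpa2 (-0.12 without control 3, with or without 4NQO 2, -0.12 to 0.51 over arrays left out). They turned for Orc1 (0.062 with probe set centring, 0.29 with the mean of probe sets, 0.093 without control 2, -0.13 to 0.093 over arrays left out) and for Orc2 (-0.065 without control 2, -0.065 to 0.20 over arrays left out). With the replicate number as a block, 2 genes were called higher and 0 lower over all genes, and 0 of the 37, with 21 higher at an unadjusted p under 0.05. Correlations of deviations between same-numbered tongues were 0.29, -0.51 and 0.048, and the highest of all pairs was 4NQO 2 with control 3 (0.48). No pairing by number was seen. These values cannot exclude one, because deviations from a group mean depend on each other. With 3 arrays per group, differences near the spread between tongues were not detectable.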

Other observations

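E2F transcription factors and the pocket proteins that restrain them were read as a further list of 13 genes. Of these, 0 passed an adjusted p under 0.05 from limma, against 0.126% of all genes higher. At an unadjusted p under 0.05, 5 were higher (38.5%, against 6.68% of all genes). Without overlap, 5 were higher in every 4NQO-treated tongue (38.5%, against 9.59% of all genes). Only 1, Tfdp2, was lower in every one, against 7.18% of all genes. E2f7, an E2F repressor, had log2 signals of 5.92, 6.29 and 5.87 in 4NQO-treated tongues, against 4.48, 5.03 and 4.999 in control tongues, a log2 fold change of 1.19 ± 0.21 (SE, adjusted p = 0.0886, limma). Rbl1, the pocket protein p107, had 6.96, 7.19 and 6.56 in 4NQO-treated tongues, against 5.71, 5.97 and 6.08 in control tongues (0.98 ± 0.20, SE). Tfdp1, the DNA-binding partner of E2F factors, had 8.98, 9.24 and 8.85 in 4NQO-treated tongues, against 8.55, 8.25 and 8.46 in control tongues (0.60 ± 0.16, SE). E2f1 and E2f2 were also higher without overlap, with log2 fold changes of 0.54 ± 0.16 and 0.63 ± 0.22 (SE). E2f4, Rbl2 and E2f8 had overlapping groups, with log2 fold changes of -0.04, -0.12 and 0.06. E2f5 had a signal of 8.47 in 4NQO 2, against 6.53 and 6.56 in the other 4NQO-treated tongues and 6.53 to 6.57 in control tongues.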
